A study of Homo sapiens with 6 samples.

Results

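The CCAAT/enhancer-binding protein (C/EBP) family and 3 further transcription factors of myeloid fate were followed in Kasumi-1, a human acute myeloid leukaemia cell line with the t(8;21) fusion of RUNX1 and RUNX1T1. The 8 genes, CEBPA, CEBPB, CEBPD, CEBPE, CEBPG, SPI1, GFI1 and IRF8, were chosen by name. Each matched 1 Ensembl identifier among the 27576 genes of the deposited table, and all 8 passed the low-value filter, as did 21946 genes in all. Of 6 RNA-seq libraries, 3 came from cells given 10 ng/ml of recombinant human interleukin-10 (IL-10) and 3 from control cells given 0.5% bovine serum albumin (BSA). Serum was at 20% in both groups, and treatment lasted 72 h. Kasumi-1 is 1 cell line, and the labels do not say whether replicates were separate cultures. The p-values therefore rest on variation among these libraries alone, which may be technical. In bulk RNA, fewer cells of a type and less RNA per cell cannot be told apart.

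C/EBP proteins are leucine zipper factors that bind DNA as pairs, with themselves or with each other, and open granulocyte genes. SPI1 encodes PU.1, an ETS factor needed by monocytes and granulocytes. GFI1 is a zinc finger repressor on the neutrophil side, and IRF8 works with PU.1 on the side of monocytes and dendritic cells. In t(8;21) leukaemia the fusion protein is known to lower CEBPA and to hinder PU.1. IL-10 signals mainly through STAT3, for which CEBPD is a known target in several cell types.

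Promoter windows of these genes are shown because the factors are known to act on each other's genes. The RefSeq table (GRCh38.p14), with windows from 250 bases before to 50 after each annotated start, held 11 windows for 6 of the 8 genes. SPI1 and CEBPD have no window here. Both strands were searched for a C/EBP motif (TTGCNNAA), a RUNX motif (TGTGGT), a PU.1 motif (GAGGAAGT), the ETS-IRF composite motif, a GFI1 motif (AAATCAC), a STAT motif (TTCCNNGAA) and a TATA box (TATAAA). Capitals mark every match, and each sequence runs 5′ to 3′ on the gene's strand.
CEBPA, chr19:33302485-33302784, minus strand: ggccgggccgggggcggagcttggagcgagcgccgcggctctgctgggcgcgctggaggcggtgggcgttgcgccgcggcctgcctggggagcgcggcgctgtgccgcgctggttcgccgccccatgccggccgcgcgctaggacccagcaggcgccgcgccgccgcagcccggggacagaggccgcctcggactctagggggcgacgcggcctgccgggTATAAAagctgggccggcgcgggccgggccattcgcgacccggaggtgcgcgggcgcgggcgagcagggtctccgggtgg
CEBPE, chr14:23119206-23119505, minus strand: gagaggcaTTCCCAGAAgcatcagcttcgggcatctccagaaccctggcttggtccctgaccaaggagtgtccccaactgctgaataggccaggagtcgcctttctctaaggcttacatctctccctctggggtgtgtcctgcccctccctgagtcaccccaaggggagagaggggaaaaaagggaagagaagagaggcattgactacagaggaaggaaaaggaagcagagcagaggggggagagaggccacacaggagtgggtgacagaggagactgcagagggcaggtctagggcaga
GFI1, chr1:92486050-92486349, minus strand: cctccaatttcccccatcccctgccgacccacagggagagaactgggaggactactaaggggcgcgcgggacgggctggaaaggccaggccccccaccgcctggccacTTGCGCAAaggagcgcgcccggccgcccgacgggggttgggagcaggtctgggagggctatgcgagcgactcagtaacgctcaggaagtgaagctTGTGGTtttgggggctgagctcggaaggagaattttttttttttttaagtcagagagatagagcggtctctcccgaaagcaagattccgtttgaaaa
IRF8, chr16:85902580-85902879, plus strand: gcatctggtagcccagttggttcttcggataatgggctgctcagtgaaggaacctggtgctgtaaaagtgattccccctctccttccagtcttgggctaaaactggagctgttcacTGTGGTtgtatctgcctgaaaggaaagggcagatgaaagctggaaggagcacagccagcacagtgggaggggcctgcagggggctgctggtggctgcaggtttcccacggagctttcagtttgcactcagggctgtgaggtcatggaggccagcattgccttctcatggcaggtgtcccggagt
The GFI1 window, 1 of 3 for that gene, held the palindromic C/EBP match TTGCGCAA, which reads the same on both strands, 142 bases before the start and a RUNX match 47 bases before it. A C/EBP match occurs in 10.5% of all 35116 windows in the table and a RUNX match in 13.1%. The IRF8 window, 1 of 2 for that gene, held a RUNX match and the CEBPE window a STAT match, TTCCCAGAA. That STAT motif is found in 4.45% of windows. Both IRF8 windows lie inside the gene's span in GENCODE 29, 85898803 to 85922609, whose first base no window covers. CEBPA had a TATA box 30 bases before its start, and so did 1 of the 2 CEBPB windows, 29 bases before its start. The letters TATAAA occur on either strand and at any position in 11.5% of windows. That is not the share with a match near 30 bases before the start. The 3 other motifs had no match in the 11 windows. The CEBPA window is 80.7% G and C, more than 97.9% of windows, and the CEBPE window 57.7%, more than 47.1%. A match is a description of the letters, not evidence of binding.

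Total recovered depth was 20750115 to 24222897 reads per library. The blast markers RUNX1T1, KIT, CD34, MPO, CD33 and PTPRC were present in all 6 libraries, with summed values of 135041 to 216410 in IL-10 libraries and 134295 to 230225 in control libraries. IL-10 replicate 2 stood apart from the other 5 libraries, with GC-rich transcripts high and GC-poor transcripts low, and fold changes of the 8 factors, and of the listed genes named below, are given with and without it. Both replicate 2 libraries also held transcripts of liver, a tissue in which CEBPA and CEBPB are themselves active. All 17 liver markers were above 0 in IL-10 replicate 2 and in control replicate 2, against 4 to 5 in the other IL-10 libraries and 5 to 6 in the other control libraries. Summed, the 17 stood at 1332 to 1758 in IL-10 libraries and 1325 to 2142 in control libraries, and SERPINA1, which myeloid cells also express, was at 879 or more in every library. In control replicate 2, the library with the highest sum, SERPINA1 made up 879 of 2142. HNF4A, a defining hepatocyte factor, was at 12.9 in IL-10 replicate 2 and 14.9 in control replicate 2, and at 0 in the other 4. Of the other marker lists, the 6 airway secretory genes summed to 126 to 131 in IL-10 libraries and 219 to 271 in control libraries. The 3 erythroid genes in the table, of 4 listed, summed to 18.2 to 20.0 in IL-10 libraries and 3.98 to 12.1 in control libraries. T and NK genes summed to 1782 to 2660 with IL-10 and 1640 to 2405 in controls. B-cell genes summed to 1868 to 2961 with IL-10 and 1800 to 1996 in controls. The 1 fibroblast gene in the table stood at 0 to 4.70 and 3.56 to 3.98. These last 3 lists overlapped between groups, and the airway and erythroid lists did not. Among single tested genes, 2.85% did not overlap with IL-10 higher and 3.02% with IL-10 lower. The part of any of these transcripts in the results below was not tested.

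Per kilobase of exon, SPI1 RNA was the most abundant of the 8 factors and IRF8 RNA the least. Over the 6 libraries SPI1 averaged 3289 per kb and IRF8 0.357 per kb. CEBPA, the next lowest after IRF8, averaged 77.7 per kb. Values are normalised read counts, that is, reads divided by 1 scaling factor per library, and per-kilobase levels divide them by the merged exon length in GENCODE 29. SPI1 averaged 3716 ± 1912 per kb with IL-10 and 2862 ± 222 per kb in control cells (SD, n = 3 each). GFI1 averaged 1481 ± 385 per kb with IL-10 and 1281 ± 36.8 per kb in control cells. Their ranges over the 6 libraries did not overlap, and both stayed in first and second place in every library. Averaged over the 6 libraries, SPI1 lay above 99.0% of 21663 tested genes per kb, GFI1 above 97.0%, CEBPE above 93.2%, CEBPA above 62.2% and IRF8 above 1.85%.

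Within the C/EBP family, CEBPE and CEBPB led, CEBPD and CEBPG were intermediate and CEBPA was lowest. CEBPE, the factor of late granulocyte maturation, averaged 792 ± 315 per kb with IL-10 and 616 ± 36.8 in control cells. CEBPB, the factor of emergency granulopoiesis and macrophages, averaged 666 ± 243 per kb with IL-10 and 554 ± 43.3 per kb in control cells. CEBPE exceeded CEBPB in 5 of 6 libraries, with overlapping ranges, so their order was within the spread. CEBPD, an acute-phase factor, averaged 365 ± 122 per kb with IL-10 and 286 ± 20.7 per kb in control cells. CEBPG, a short member known as a dimer partner without an activating domain of its own, averaged 295 ± 16.4 per kb with IL-10 and 306 ± 24.8 per kb in control cells. CEBPD exceeded CEBPG in 3 of 6 libraries. Over the 5 libraries without IL-10 replicate 2 these neighbours changed places, CEBPG averaging 305 per kb and CEBPD 289.9 per kb, while SPI1 averaged 2763 per kb, GFI1 1272 per kb, CEBPE 615 per kb, CEBPB 543 per kb and CEBPA 63.7 per kb. CEBPA, which commits progenitors to the granulocyte lineage, averaged 95.9 ± 45.1 per kb with IL-10 and 59.5 ± 8.53 per kb in control cells, below each other C/EBP gene in all 6 libraries. As a share of the 5 C/EBP levels per kb, CEBPA took 4.21 ± 0.610% with IL-10 and 3.26 ± 0.447% in control cells. CEBPE took 35.3 ± 3.74% with IL-10 and 33.8 ± 1.80% in control cells, and CEBPG 14.2 ± 4.37% with IL-10 and 16.8 ± 1.20% in control cells. The lower mean of CEBPG rests on IL-10 replicate 2. Its share was 17.2%, 9.22% and 16.3% in IL-10 replicates 1 to 3, against 15.5% to 17.9% in control libraries.

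**Figure D1:**
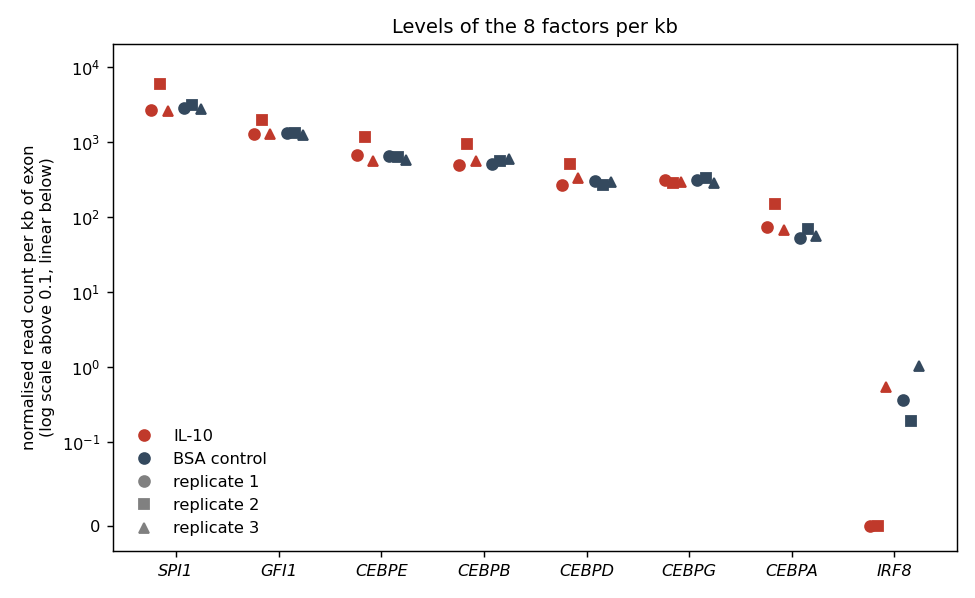
Normalised read count per kb of exon (log scale above 0.1, linear below) for each of the 8 factors in the 6 libraries, with IL-10 libraries in red and control libraries in dark blue. SPI1 and GFI1 lie above all others, CEBPA is the lowest of the C/EBP genes, and IRF8 is at or near 0, between 0 and 1.03 per kb.

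CEBPA (ENSG00000245848, chromosome 19, 33299934 to 33302564, GRCh38) had normalised read counts of 191, 389 and 177 in IL-10 replicates 1 to 3, against 139.7, 182 and 148 in control replicates 1 to 3. The groups overlapped, since IL-10 replicate 3 lay below control replicate 2. The means were 252 ± 119 and 156 ± 22.4, a log2 fold change of 0.60 (SE 0.31, 95% interval -0.10 to 1.30) that did not pass the threshold in limma (adjusted p = 0.982). None of the 8 factors passed, and no gene of the 21946 did (0% called), while 344 genes (1.57%) had an unadjusted p under 0.05 in limma, of which 120 were higher with IL-10 (0.547%). The groups overlapped in all 8 factors. Over all tested genes, 2.85% had every IL-10 library above every control library and 3.02% had every IL-10 library below. edgeR and DESeq2 also called 0 genes, with 257 and 94 at an unadjusted p under 0.05.

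CEBPA was the 1 factor of 8 with a higher value with IL-10 in each same-numbered pair of libraries, an ordering that 12.4% of tested genes also had. In pair 1 the ratio of IL-10 to control was 1.37 (exact 95% counting interval 1.10 to 1.71), in pair 2 it was 2.14 (1.78 to 2.58) and in pair 3 it was 1.20 (0.965 to 1.48). These intervals compare 2 libraries each and cover counting error only. CEBPA rested on 150 to 331 reads per library. Its log2 ratios of 0.45, 1.09 and 0.26 were each at least 0.25. Of 11604 genes with a mean value of at least 50, 31 also met this limit (0.267%). Pair 2 holds IL-10 replicate 2, in which GC-rich transcripts stood high. The limit was set after the values of CEBPA were seen, just under its smallest ratio. CEBPA thus met it by construction, and the share does not measure how rare its ordering is. Without IL-10 replicate 2 its log2 fold change was 0.24 (-0.15 to 0.63, adjusted p = 1.00 in limma), under 0.5 times the value from all 6 libraries. In pairs 1 and 3 alone with the replicate as a block it was 0.35 in limma (adjusted p = 0.883, unadjusted p = 0.00848). In that fit 10 of 21946 genes passed (0.0456%) and 1008 had an unadjusted p under 0.05. These pairs also leave out control replicate 2, the highest control library for CEBPA at 182.

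The divergent noncoding gene CEBPA-DT, a neighbour on the other strand, did not show the same ordering. It stood at 119, 133 and 83.6 in IL-10 libraries and 94.1, 85.5 and 121 in control libraries, with the highest and lowest values both in the IL-10 group. GENCODE 29 also places 2 antisense genes over CEBPA that are absent from the deposited table. Whether counting used strand is not given in the sources used here, so reads of CEBPA and of an overlapping antisense gene cannot be told apart.

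**Figure D2:**
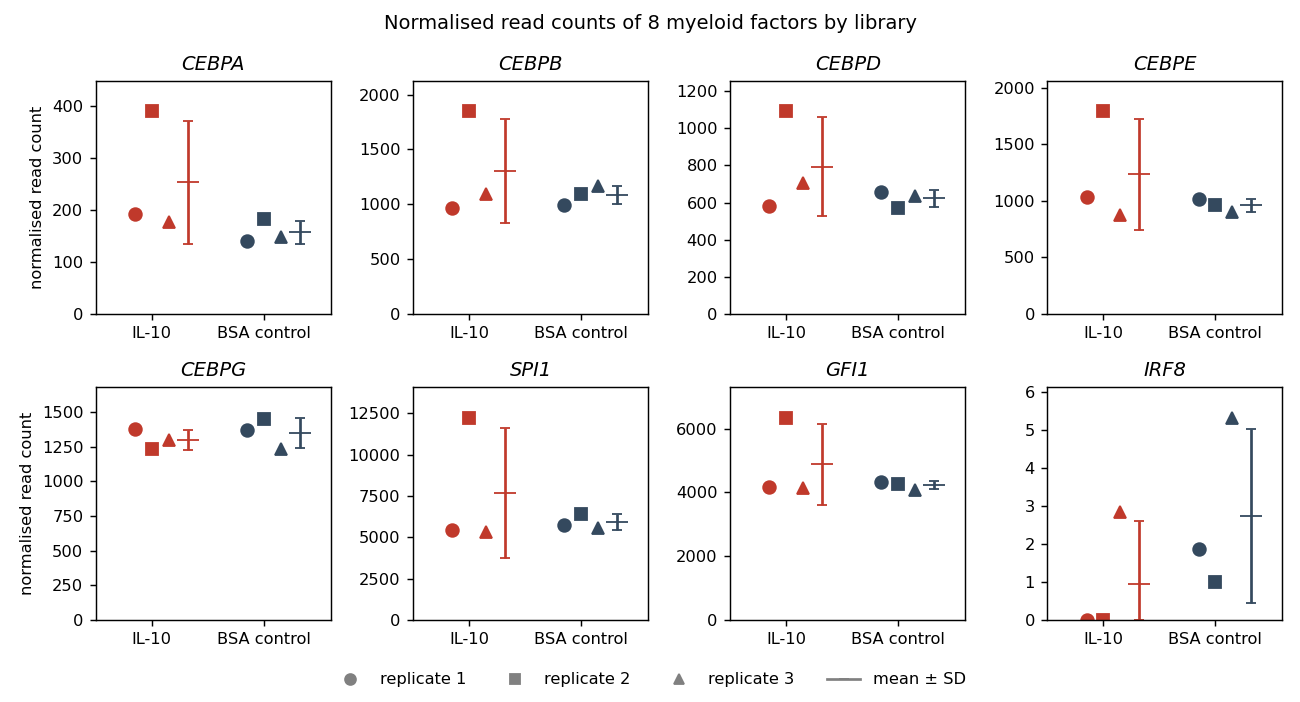
Normalised read counts of each factor by library, IL-10 left of BSA control, with symbols for replicates 1 to 3 and the mean ± SD beside them (error bars stop at 0). IL-10 replicate 2 is the highest library for 6 of the 8 factors, CEBPG and IRF8 excepted, and the other 5 libraries lie close together.

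CEBPB, CEBPD and CEBPE shared 1 pattern, a high value in IL-10 replicate 2 and little difference elsewhere. CEBPB (ENSG00000172216, chromosome 20, 50190734 to 50192689) had 967, 1846 and 1094 in IL-10 libraries, against 994, 1092 and 1163 in control libraries. CEBPD (ENSG00000221869, chromosome 8, 47736909 to 47739086) had 582, 1092 and 708 with IL-10, against 659, 572 and 636 in controls. CEBPE (ENSG00000092067, chromosome 14, 23117304 to 23119616) had 1035, 1789 and 871 with IL-10, against 1014, 961 and 899 in controls. In all 3 genes the groups overlapped, and IL-10 replicate 2 was the highest library by a wide margin. The log2 fold changes were 0.21 for CEBPB (95% interval -0.34 to 0.76), 0.30 for CEBPD (-0.23 to 0.84) and 0.29 for CEBPE (-0.29 to 0.87), each with an adjusted p of 0.982 in limma. Leaving out IL-10 replicate 2 gave -0.071 for CEBPB (-0.33 to 0.19), 0.048 for CEBPD (-0.25 to 0.34) and -0.011 for CEBPE (-0.28 to 0.25). The antisense gene CEBPB-AS1, which overlaps CEBPB, was low, at 4.70 to 14.3 in IL-10 libraries and 5.97 to 16.9 in control libraries.

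For CEBPD, pairs 1 and 3 pointed in opposite directions. The ratio of IL-10 to control was 0.884 in pair 1 (counting interval 0.789 to 0.990) and 1.11 in pair 3 (1.00 to 1.23). Its log2 fold change in these pairs with the block was -0.012 (95% interval -0.16 to 0.13).

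CEBPG did not follow the rest of its family. CEBPG (ENSG00000153879, chromosome 19, 33373330 to 33382686), which lies on the same chromosome as CEBPA, had 1374, 1229 and 1297 in IL-10 libraries, against 1367, 1451 and 1234 in control libraries. IL-10 replicate 2 was its lowest library. The means, 1300.4 ± 72.5 and 1351 ± 109, differed by a log2 fold change of -0.053 (95% interval -0.40 to 0.29, adjusted p = 0.984 in limma). The 5 remaining libraries, with IL-10 replicate 2 left out, gave -0.013 (-0.25 to 0.23).

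SPI1 and GFI1 were abundant, and their values outside IL-10 replicate 2 lay close to one another. SPI1 (ENSG00000066336, chromosome 11, 47354860 to 47378576) had 5467, 12255 and 5345 in IL-10 libraries, against 5757, 6439.9 and 5569 in control libraries. GFI1 (ENSG00000162676, chromosome 1, 92474762 to 92486876) had 4175, 6354 and 4133 with IL-10, against 4317, 4281 and 4091 in controls. IL-10 replicate 2 was at 2.14 times the mean of the other 5 libraries for SPI1 and at 1.51 times for GFI1, and the groups overlapped in both genes. The log2 fold change of SPI1 was 0.26 (95% interval -0.42 to 0.95), or -0.13 (-0.34 to 0.08) without that library. That of GFI1 was 0.18 (-0.27 to 0.62), or -0.026 (-0.21 to 0.16) without it. The adjusted p was 0.982 for both genes in limma. In pairs 1 and 3 the ratio of IL-10 to control for SPI1 was 0.9495 (counting interval 0.915 to 0.986) and 0.960 (0.926 to 0.995), both below 1. In the other 5 libraries GFI1 spanned 0.078 on the log2 scale, the narrowest of the 8 factors, and CEBPA spanned 0.45.

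**Figure D3:**
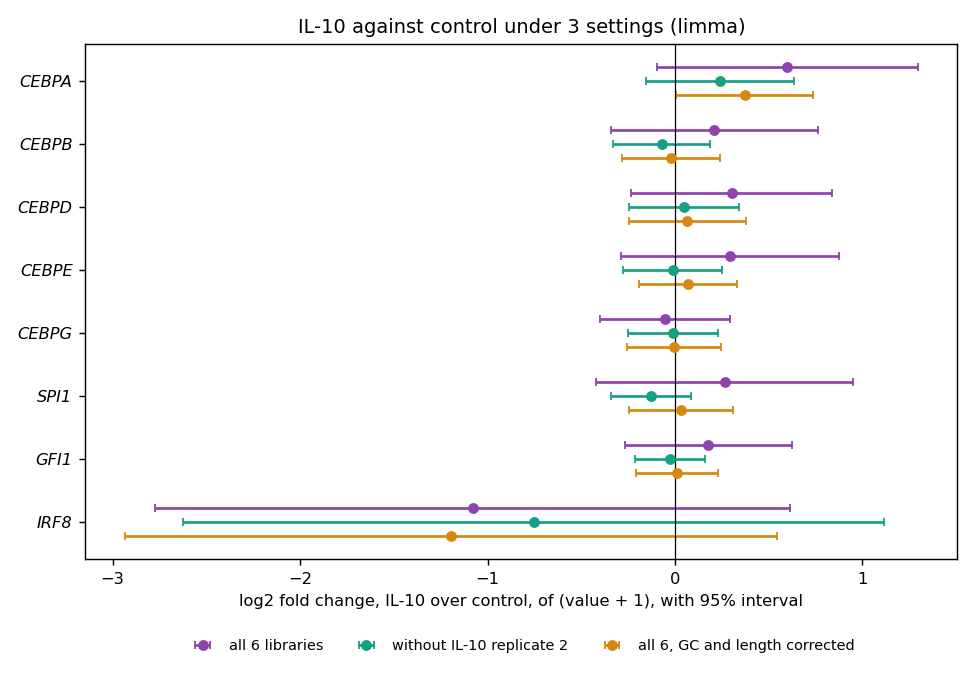
Log2 fold change of IL-10 over control for each factor on the log2(value + 1) scale with its 95% interval, from limma with all 6 libraries, without IL-10 replicate 2, and with all 6 after correction for GC content and length. Without that library the intervals narrow for every factor except IRF8, and 6 of the 8 values lie within 0.13 of 0, CEBPA at 0.24 and IRF8 at -0.75 being the others.

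IRF8 was almost undetected in Kasumi-1 under either condition. IRF8 (ENSG00000140968, chromosome 16, 85898803 to 85922609) had 0, 0 and 3 reads in IL-10 replicates 1 to 3 and 2, 1 and 6 reads in control replicates 1 to 3. Scaled for library size, the ratio of the summed reads was 0.376, with an exact 95% counting interval of 0.0655 to 1.51 that includes 1. The fitted log2 fold change of -1.08 (95% interval -2.77 to 0.62, adjusted p = 0.982 in limma) depends on the pseudocount of 1. At this depth no difference in IRF8 was resolved, and the counting interval runs from a large fall to a ratio of 1.51. SPI1 lay at 2584 per kb or more in every library, and IRF8 at 1.03 per kb or less.

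**Figure D4:**
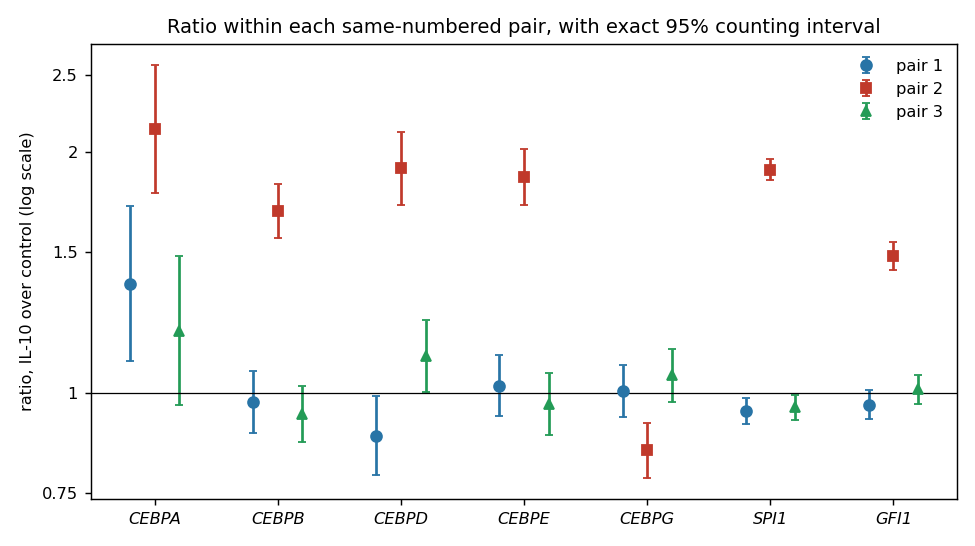
Ratio of IL-10 to control (log scale) within pairs 1, 2 and 3 for 7 factors, with exact 95% counting intervals that cover counting error only. Pair 2 is apart from 1 in every factor, upward in 6 and downward in CEBPG, while in pairs 1 and 3 the ratios lie between 0.884 and 1.37, with CEBPA highest in both. IRF8 is left out for its 12 reads.

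Apart from IRF8, the deviation of IL-10 replicate 2 was higher in the GC-rich factors than in those of lower GC content. CEBPA, CEBPB, CEBPD, CEBPE and SPI1, with 62.9% to 70.0% G and C, were at 0.79 to 1.22 on the log2 scale above the mean of the other 5 libraries. Within these 5 the deviation did not rise with GC content. CEBPD, at 70.0%, was lowest at 0.79, below CEBPE, at 62.9%, with 0.91. GFI1, at 56.1% GC, was at 0.60, and CEBPG, at 43.9%, at -0.13. Across 11576 genes with a mean value of at least 50, the top decile by GC had a median deviation of 0.86 and the bottom decile one of -0.71. The top decile, whose GC range holds those 5 factors, had quartiles of 0.56 and 1.07, and CEBPA at 1.22 and SPI1 at 1.10 lay above them. GFI1 and CEBPG lay close to the medians of their own deciles, 0.59 and -0.14. IRF8, at 52.0% GC and with 0 reads in that library, was at -1.42, against a median of 0.42 for its decile. IL-10 replicate 2 was the highest library for 6 of the 8 factors, and for 31.1% of all tested genes.

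**Figure D5:**
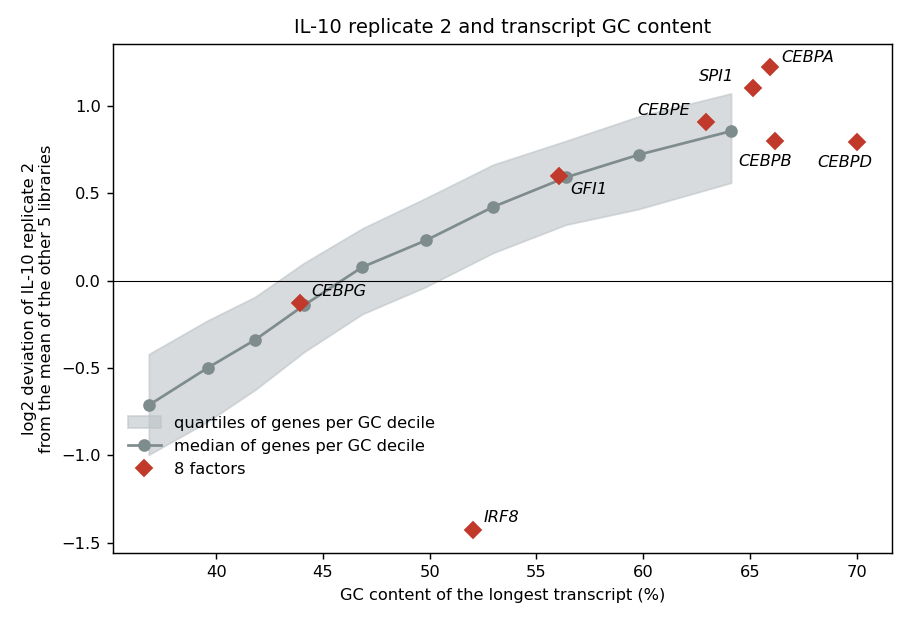
Log2 deviation of IL-10 replicate 2 from the mean of the other 5 libraries against GC content (%) of the longest transcript. The grey line and band give the median and quartiles of genes in each decile by GC, drawn at its median GC, and red diamonds are the 8 factors. CEBPG and GFI1 lie close to the line, CEBPA at 1.22 lies highest, and IRF8, with 0 reads in that library, lies lowest.

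When a smooth trend on GC content and length was removed from each library, most of that deviation went with it in the 5 GC-rich factors and GFI1. The corrected deviation of IL-10 replicate 2 was 0.38 for CEBPA, 0.28 for SPI1, 0.14 for CEBPE, 0.075 for GFI1, 0.051 for CEBPG, -0.053 for CEBPB and -0.13 for CEBPD. For IRF8, with 0 reads in that library, it was -1.76, against -1.42 before correction. The corrected log2 fold change of IL-10 against control was 0.37 for CEBPA (95% interval 0.0065 to 0.74, unadjusted p = 0.0468, adjusted p = 1.00 in limma). For CEBPB, CEBPD, CEBPE, CEBPG, SPI1 and GFI1 it was between -0.023 and 0.068, and for IRF8 it was -1.19 (-2.93 to 0.55). In this corrected fit 366 of 21663 genes had an unadjusted p under 0.05. With IL-10 replicate 2 also left out, a setting chosen after seeing the data, CEBPA had 0.31 (-0.069 to 0.69, unadjusted p = 0.0967 in limma).

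No listed target of these factors passed the threshold. The lists were chosen with earlier results of these data known. Of the 21946 genes tested in all, 11407 had positive values. Of 19 granule and receptor genes linked to C/EBP factors, 16 were in the table and 11 passed the low-value filter. Among these 11, 0 passed the threshold, with 8 positive and 3 negative values. Their median log2 fold change was 0.12, against 0.02 over all genes tested, and 0.05 without IL-10 replicate 2. MPO, the myeloperoxidase of primary granules, averaged 122627 ± 48624 with IL-10 and 102644 ± 44038 in control cells. FUT4, which makes the CD15 antigen, averaged 3090.4 ± 482 with IL-10 and 2800.5 ± 135 in control cells. CTSG, the granule protease cathepsin G, averaged 2012 ± 674 with IL-10 and 1593 ± 296 in control cells. Their log2 fold changes were 0.25, 0.13 and 0.30 (adjusted p = 0.982 each in limma). Leaving out IL-10 replicate 2 brought them to 0.0071 for MPO, 0.010 for FUT4 and 0.054 for CTSG.

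The primary granule genes PRTN3, ELANE and AZU1, chosen after their values were seen, ranged more widely over the 6 libraries than any C/EBP factor did. PRTN3, the protease of neutrophil azurophil granules, stood at 591, 47.0 and 86.4 in IL-10 replicates 1 to 3, against 566, 18.9 and 81.0 in control replicates 1 to 3. ELANE, neutrophil elastase, stood at 159, 4.70 and 16.1 with IL-10, against 139.7, 8.95 and 15.1 in controls. AZU1, azurocidin, stood at 1539, 591 and 770.3 with IL-10, against 1663, 422 and 774 in controls. In all 3 genes both replicate 1 libraries were highest, whichever the treatment. Not all primary granule genes did so. MPO, at 66945 to 160649, and CTSG, at 1310 to 2715, had a narrower fold range than CEBPA, at 139.7 to 389. Both were highest in IL-10 replicate 2. Without IL-10 replicate 2, CEBPA spanned 139.7 to 191 and CEBPE 871 to 1035. Both replicate 1 libraries were also the highest of those 5 for CEBPE, at 1035 with IL-10 and 1014 in control cells, over a far narrower range.

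For PU.1, 19 of 20 listed targets were in the table and tested, 0 passed, and the median log2 fold change was 0.054, or 0.0082 without IL-10 replicate 2. BTK, a signalling kinase, averaged 4502 ± 190.5 with IL-10 and 4502 ± 79.1 in control cells. FES, a myeloid kinase, averaged 3604 ± 1118 with IL-10 and 3066 ± 331 in control cells, and LAPTM5, a lysosomal membrane protein of blood cells, had a log2 fold change of 0.15. IL-10 replicate 2 was the highest library for FES and LAPTM5 and the lowest for BTK. The log2 fold changes without it were 0.028 for BTK, -0.043 for FES and 0.0015 for LAPTM5, where all 6 libraries gave -0.00084 for BTK and 0.20 for FES. Of 12 genes linked to IRF8 or monocyte fate, 10 were tested and 0 passed, with a median of 0.058, or 0.0093 without IL-10 replicate 2. CTSC, a lysosomal protease, averaged 8140.1 ± 484 with IL-10 and 8115 ± 462 in control cells. PML, a nuclear body protein, and ZEB2, a repressor in blood lineages, had log2 fold changes of 0.25 and -0.14. Both changed sign without IL-10 replicate 2, PML to -0.048 and ZEB2 to 0.062, and CTSC had 0.0042 with all 6 libraries and -0.0063 without it.

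No listed partner or regulator passed either. All 17 listed partners and regulators of C/EBP factors were tested, with a median of 0.11 and 0 past the threshold. They had 14 positive and 3 negative values, against 11407 positive of all 21946 genes tested. The same 17 had a median of -0.063 once IL-10 replicate 2 was left out. CALR, a chaperone known to bind CEBPA transcripts, averaged 38966 ± 14914 with IL-10 and 32242 ± 4588 in control cells. ATF4, a leucine zipper partner, averaged 11258 ± 3466 with IL-10 and 9697 ± 821 in control cells. PCBP2, an RNA-binding protein, averaged 3403 ± 179.7 with IL-10 and 3141 ± 129 in control cells. Their log2 fold changes were 0.22, 0.18 and 0.11 with all 6 libraries, and -0.076 for CALR, -0.063 for ATF4 and 0.074 for PCBP2 without IL-10 replicate 2. Of 10 genes of the GFI1 family and its corepressors, 9 were tested and 0 passed (median 0.14, or -0.068 without IL-10 replicate 2). The histone modifiers HDAC1, KDM1A and HDAC2 had log2 fold changes of 0.063, 0.098 and -0.15, or -0.076, -0.0020 and -0.012 without that library. GFI1B, the paralogue of erythroid and platelet lineages, picked out after its values were seen, stood at 1.99 to 10.6 over the 6 libraries.

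Among paralogues of SPI1 and IRF8, 12 of 14 were in the table and tested, and 0 passed, with a median of 0.029, or 0.030 without IL-10 replicate 2. The ETS factors ERG, FLI1 and ETV6, those of highest mean value, had log2 fold changes of 0.0090, -0.044 and -0.049, or 0.020, 0.041 and 0.0030 without it. The IRF8 relatives IRF5, IRF3 and IRF2, picked out after their values were seen, had normalised read counts well above 0, at 1457 to 3409.7, 1430 to 2238 and 584 to 762 over the 6 libraries. Of 20 other fate factors of blood progenitors, 18 were tested and 0 passed (median 0.10, or -0.077 without IL-10 replicate 2). RUNX1, MYB and LMO2 led this list, with log2 fold changes of 0.080, -0.14 and 0.15, or 0.066, 0.050 and -0.0035 without it.

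The genes whose pattern over the 6 libraries lay nearest to each factor were found by the root mean square difference of centred log2(value + 1) among 11604 genes of mean value at least 50, as a description. CEBPE lay nearest to G6PC3 (0.021) and AGTRAP (0.022), SPI1 to DPP7 (0.022) and TBC1D10B (0.024), GFI1 to CDK9 (0.017) and ESYT1 (0.020), and CEBPG to N6AMT1 (0.0077) and KAT6A (0.015). CEBPB lay nearest to B4GALT7 (0.030) and CEBPD to PNPLA2 (0.040). CEBPA had no neighbour nearer than ZFPL1 (0.073), and IRF8, set against 11605 such genes, none nearer than LAMA3 (0.46). Among the factors themselves, CEBPB and CEBPD were the closest pair (0.12), and CEBPE and SPI1 came next (0.13). All of these points share the same 6 libraries, IL-10 replicate 2 included.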

How the data were processed

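RNA-seq libraries of Kasumi-1 cells were made from Trizol-extracted total RNA with an Illumina TruSeq kit, per the labels' protocols. The deposited values, named FPKM in the file, are a normalised signal: within each library 100% of values were whole multiples of 1 step, within 0.01 read. The authors thus deposited read counts divided by a factor of 0.851 to 1.12 per library, not by length. Builds GRCh38 and hg38 and the tool edgeR 3.18.1 appear in the submitters' processing notes without a stated role. The aligner, counter, annotation and strand setting: not given in the sources used here. Identifiers were matched to gene names (26883) and to GENCODE 29 (27052).

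Values were put on the log2(value + 1) scale, and IL-10 was compared with control in limma 3.58.1 under R 4.3.3, with its trend option. Genes entered if 3 or more libraries reached a value of 1. The two-sided threshold was 0.05 after Benjamini-Hochberg adjustment, and the fit was tested on simulated data. The simulation gave every gene the same spread beyond counting error and held no library like IL-10 replicate 2. It therefore does not measure power in these data. The log2(value + 1) scale understates fold changes of low genes. Recovered reads were tested with edgeR 4.0.16 and DESeq2 1.42.0. Same-numbered libraries deviated together (correlations 0.367, 0.605 and 0.726 over 11605 genes), so pairs were taken from these values; the labels give only the shared number. The members and gene lists were chosen with earlier results of these data known. Besides all 8 factors, the 3 genes of highest mean per list are named, and the text marks any gene picked out later. Alternatives were other filters, pseudocounts and scalings, sample weights, the replicate number as a block, each library left out in turn, and removal of a smooth trend on GC content and length from each library. Depth intervals cover counting error only.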

Additional observations from a re-analysis of the deposited data

How the results depend on the processing

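Genes past the threshold numbered 0 in each alternative that was run, edgeR and DESeq2 included, except in pairs 1 and 3 with the replicate block, where limma called 10. No factor passed in any setting, the replicate block on all 6 libraries included, where CEBPA had 0.60 (adjusted p = 0.851). Over 24 alternatives the log2 fold change of CEBPA was positive throughout (0.24 to 0.81, adjusted p from 0.252 to 1.00), and that of IRF8, over 23, negative (-2.88 with a pseudocount of 0.1, to -0.61). IRF8 gave no value with a filter of at least 10. The other signs, none of a called value, changed as follows. With sample weights CEBPB had -0.046, CEBPD -0.080, CEBPG 0.0089, SPI1 -0.060 and GFI1 -0.020. In pairs 1 and 3, blocked or not, CEBPB had -0.064, CEBPD -0.012, CEBPE -0.0085, CEBPG 0.040, SPI1 -0.067 and GFI1 -0.017. With the GC and length correction, with or without the replicate block, CEBPB had -0.023. With it and without IL-10 replicate 2, a setting chosen after seeing the data like pairs 1 and 3 without the block, CEBPB had -0.0035, SPI1 -0.076 and GFI1 -0.019. Leaving out each library gave -0.071 to 0.40 for CEBPB, 0.048 to 0.50 for CEBPD, -0.011 to 0.51 for CEBPE, -0.12 to 0.00047 for CEBPG, -0.13 to 0.47 for SPI1 and -0.026 to 0.28 for GFI1. The negative ends came without IL-10 replicate 2, except for CEBPG, whose lowest value came without control replicate 3 and highest without control replicate 2. With the longest transcript in place of merged exons, which only divides the same values by a shorter length, SPI1 stood at 4851 per kb, against 3289, GFI1 at 1597, against 1381, CEBPG at 323, against 300.5, and IRF8 at 0.608, against 0.357, and the other factors did not move. The cause of the sign changes was not tested. Equal totals moved the median of all genes by -0.094 and every factor down, CEBPA to 0.50 and CEBPG to -0.15. Depth limits IRF8 most and, with counting errors of 5.50% to 8.16% per library, CEBPA next.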
